A study of Mus musculus with 38 samples.

Results

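The effect of deleting Srsf2 for 10 days was compared gene by gene between reporter-positive cells sorted from mouse back skin and whole back skin, to see which changes were found in the sorted cells, which in the tissue only and which in both. The genes compared were those with a mean of 10 or more in both expression tables, 16477 of the 49585 genes that each table lists. The sorted table holds 3 control and 3 SRSF2-KO mice, all after 10 days of topical 4-hydroxy tamoxifen given every other day. The whole-skin table gives 3 SRSF2-KO mice (Krt14CreER positive) treated for 10 days and 3 controls, which are Cre negative and were treated for 12, 12 and 10 days, so all 4 groups received 4-hydroxy tamoxifen. In skin, an effect of Cre therefore cannot be told apart from that of Srsf2 loss. Every skin mouse is labelled as belonging to the SRSF2 KO line, and its tdTomato reporter was heterozygous, homozygous or wild type in both skin groups. For the sorted mice, the labels used here give neither the Cre status nor the reporter's zygosity. Any effect of Cre in skin would therefore also enter the difference between the sorted and skin effects, and its part there was not tested. Each library was made from 1 mouse labelled as a biological replicate, and p-values measure the spread between these mice. Krt14CreER is a recombinase made in keratin-14 cells of the epidermis and hair follicle and activated by 4-hydroxy tamoxifen, so in skin the unrecombined cells (dermis, muscle, fat, vessels) contribute RNA beside the recombined ones.

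SRSF2 is an SR protein, a member of the serine- and arginine-rich family that binds exonic enhancers in pre-mRNA and helps the spliceosome choose splice sites. It is also known to act in the release of paused RNA polymerase. Keratin-14 cells are the basal keratinocytes that renew the epidermis and the outer root sheath and stem cells that renew the hair follicle, whose cycle of rest and growth also changes the hair shaft, the melanocytes and the surrounding fat.

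The 6 sorted libraries held 45.9 to 92.8 M gene-assigned reads. The skin values are whole multiples of a smallest step in each library and summed to 28.5 to 37.5 M steps. Sorted values are given below as deposited normalised counts and skin values as steps, and since the tables were normalised separately, only differences within a table were compared. Steps leave out the factor that each skin library has in the deposited values (0.821 to 1.45). Step totals were 28.5 to 30.2 M in the skin controls and 35.5 to 37.5 M in the knockouts. Sorted knockout replicate 2 stood apart from the other libraries. It had the lowest depth, 60.9% of its reads in Gm26917 and Gm42418 (10.2% to 12.1% in the other 5 libraries) and 19969 genes detected against 25046 to 26358, so each result is also given without it. The basal keratins Krt5 and Krt14 were abundant in all 6 sorted libraries, Krt5 at 428706 to 707448 normalised counts. Of 18 endothelial genes, Cdh5, Cldn5 and Sox17 were at 0 in all 6, and the list summed to 239 to 368 normalised counts in the controls and 373 to 688 in the knockouts. The sums in controls and knockouts were 18461 to 21175 and 18337 to 34064 for pericyte and smooth muscle genes, 7558 to 10780 and 9571 to 18734 for fibroblast genes, and 14399 to 17016 and 14345 to 25839 for Langerhans cell and MHC class II genes. Knockout replicate 2 had the highest sum in each of these 4 lists. It had the lowest of the 6 libraries for macrophage and dendritic cell (342), mast cell (260), melanocyte (1082) and adipocyte genes (4479). The part of such cells in the results was not tested.

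In the sorted cells Srsf2 (chr11:116849901-116853094, minus strand, by the GENCODE positions matched to the files' identifiers) was at 17560, 18190 and 20595 normalised counts in the controls and at 3659, 3359 and 1900 in the knockouts. The groups did not overlap, and the level was 6.55-fold lower in the knockouts (log2 effect -2.71 ± 0.27 SE, limma, Benjamini-Hochberg adjusted p = 0.043). In whole skin Srsf2 was at 2885, 2879 and 2996 steps in the controls and at 2996, 3084 and 3687 in the knockouts, an effect of 0.15 (95% interval -0.07 to 0.37) that did not pass the test (adjusted p = 0.29). The 2 effects differed by -2.86 (adjusted p = 0.00181), and this call held when any 1 of the 12 libraries was left out. In these bulk samples, fewer cells of a type and less RNA per cell cannot be told apart, which holds for every value below.

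A pair of neighbouring transcripts on chromosome 14 went from none or almost none to clear expression in both materials. 4931403M11Rik was at 0 in all 3 sorted controls and at 305, 99.3 and 229 normalised counts in the knockouts. With the floor of 3 reads per library, the level was at least 92.2-fold higher in the knockouts, from 711 reads against 0. In whole skin the gene was at the lowest step in all 3 controls and at 120, 131 and 82 steps in the knockouts. 4930428N03Rik (chr14:24617557-24788520, plus strand) had 1 read over the 3 sorted controls and 589 over the knockouts, a ratio of 834 with a counting interval of 149 to 32986. This interval covers counting error alone, not the spread between mice. In skin 4930428N03Rik was likewise at the lowest step in each control and at 83, 93 and 73 steps in the knockouts. The log2 effects were 7.58 and 7.21 in sorted cells (adjusted p = 0.0164 for each) and 5.78 and 5.39 in skin, on the log2(value + 1) scale. The windows around their annotated starts, printed below, lie close together on the same strand, so reads may be shared between these 2 transcript models. The function of neither is known from the files.

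Dnah17, a dynein heavy chain of motile cilia and sperm tails (chr11:118021723-118130634, minus strand), was at 28, 25 and 26.5 normalised counts in the sorted controls and at 485, 353 and 642 in the knockouts, 17.5-fold higher (log2 effect 4.13 ± 0.34, adjusted p = 0.0164). In whole skin the gene was at 51, 45 and 56 steps against 439, 473 and 313, 7.83-fold higher. For all 3 genes the groups were far apart in each material, and the effects did not pass the test for a difference between materials (adjusted p = 0.192, 0.149 and 0.205). Because these genes had the most clearly shared rise, the windows at their RefSeq starts on GRCm38.p6 are shown. Each runs from 250 bases before to 50 after the start, with the annotated start base in capitals. By the gene positions given above, the windows of 4930428N03Rik and Dnah17 lie inside the genes, so they may not be promoters. The windows are 4931403M11Rik from chr14:24617215-24617514 (plus strand), 4930428N03Rik from chr14:24620780-24621079 (plus strand) and Dnah17 from chr11:118129170-118129469 (minus strand).
4931403M11Rik: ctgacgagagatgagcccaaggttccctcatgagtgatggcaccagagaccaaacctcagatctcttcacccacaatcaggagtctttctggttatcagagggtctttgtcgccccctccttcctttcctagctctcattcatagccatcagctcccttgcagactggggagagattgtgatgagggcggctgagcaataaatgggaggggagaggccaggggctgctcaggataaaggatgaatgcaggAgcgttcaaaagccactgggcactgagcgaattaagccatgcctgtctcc
4930428N03Rik: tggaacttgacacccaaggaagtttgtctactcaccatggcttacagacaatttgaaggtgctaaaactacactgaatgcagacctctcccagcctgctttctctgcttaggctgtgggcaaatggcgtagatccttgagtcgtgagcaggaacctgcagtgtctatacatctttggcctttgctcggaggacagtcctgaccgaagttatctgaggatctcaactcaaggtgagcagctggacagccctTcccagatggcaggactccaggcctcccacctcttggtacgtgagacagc
Dnah17: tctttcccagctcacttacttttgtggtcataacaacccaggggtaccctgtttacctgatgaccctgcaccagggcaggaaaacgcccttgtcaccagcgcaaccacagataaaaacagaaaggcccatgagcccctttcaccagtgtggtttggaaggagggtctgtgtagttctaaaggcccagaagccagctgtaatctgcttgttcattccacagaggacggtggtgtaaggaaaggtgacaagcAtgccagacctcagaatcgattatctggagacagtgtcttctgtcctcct

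**Figure D1:**
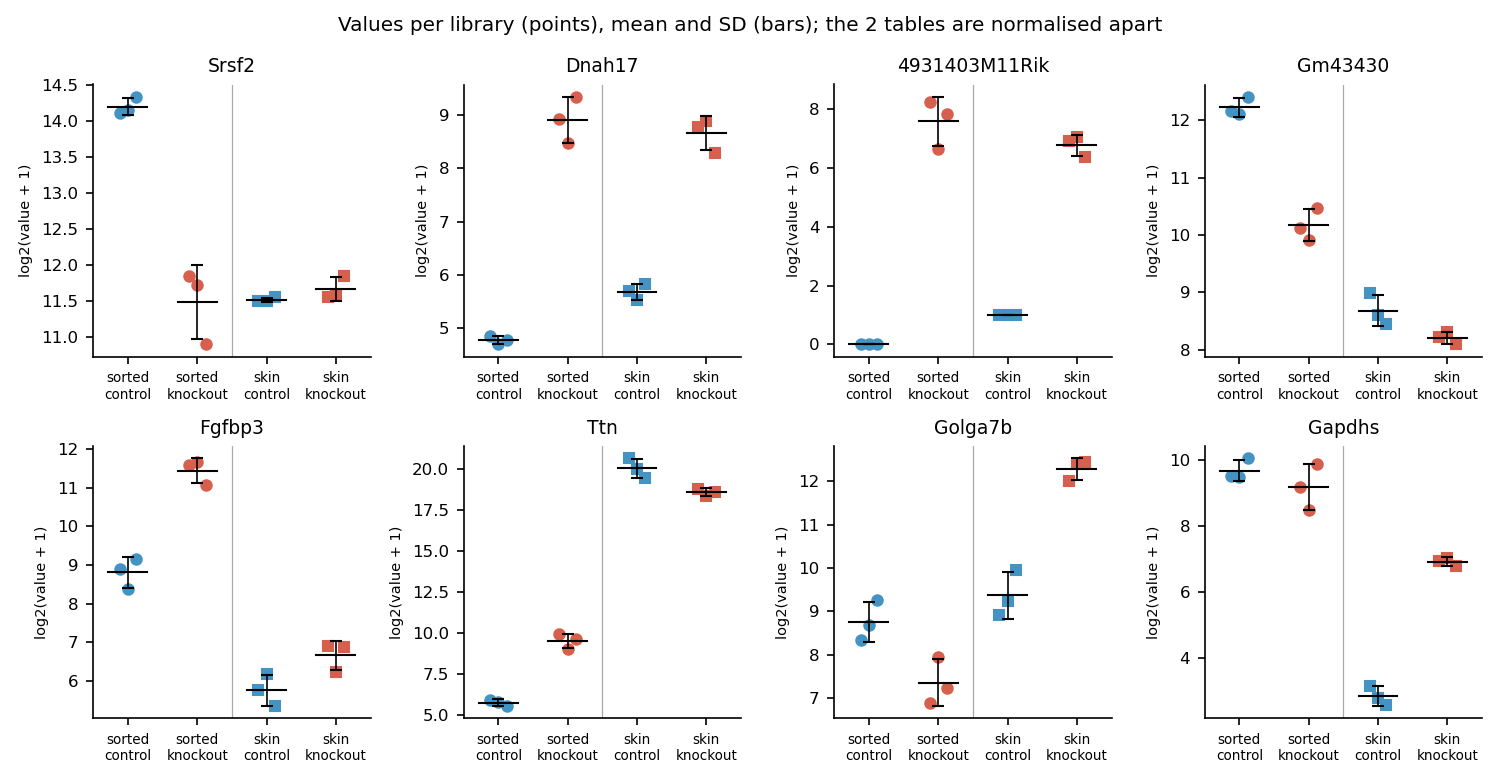
Values of 8 genes in each of the 12 libraries as log2(value + 1), with sorted cells (circles) and whole skin (squares) on either side of the line, controls in blue and knockouts in red, and the mean and SD as bars. Srsf2 separates the groups in sorted cells alone (17560 to 20595 against 1900 to 3659), whereas Dnah17 separates them in both materials.

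Across the 17744 genes tested in sorted cells, 7 (0.0394%) passed an adjusted p of 0.05 in limma, 5 higher (0.0282%) and 2 lower (0.0113%). Those that rose were 4931403M11Rik, 4930428N03Rik, Dnah17, Ttn and Fgfbp3, and those that fell were Srsf2 and Gm43430. These calls ended when any sorted library other than knockout replicate 2 was left out, so 0 genes were called without sorted control 1, 2 or 3 or knockout 1 or 3. Without knockout replicate 2, 410 genes (2.33%) were called, 184 higher and 226 lower. At an unadjusted p of 0.05, limma had 2914 genes, and on the recovered reads edgeR called 3 genes and DESeq2 1256. In skin 4913 of 19450 genes (25.3%) were called, 2593 higher and 2320 lower (1201 and 6818 with library totals made equal, 3418 and 550 on the deposited scale), among them 3967 (24.1%) of the 16477 measured in both. The skin count was 1434 without skin control 2, 2295 without knockout 2, 3039 without knockout 3, 3145 without control 1 and 3195 without knockout 1. The median standard error of an effect was 0.337 in sorted cells, 0.234 there without knockout replicate 2, and 0.177 in skin, so a gene called in skin alone is not thereby shown to be a change of the tissue alone. On simulated data the sorted test recovered 1% of 2-fold and 50% of 4-fold changes, and the skin test 58% and 89%.

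Of the 7 genes called in sorted cells, 5 were called in skin (71.4% of the sorted list, 0.126% of the skin list). 4931403M11Rik, 4930428N03Rik and Dnah17 rose in both and Gm43430 fell in both, while Ttn rose in sorted cells and fell in skin. Without sorted knockout replicate 2, 149 genes were called in both (39.3% of the sorted list, 3.76% of the skin list), 83 rising in both, 31 falling in both and 35 moving in opposite directions. Over the 16477 genes the effects had a Pearson correlation of 0.279 and a Spearman correlation of 0.260, as a description, and 59.5% had the same sign. The correlation was 0.341 without sorted knockout replicate 2 and 0.164 without knockout replicate 1. Of the 2226 genes that rose in skin, 63.5% had a positive sorted effect, with a median of 0.20 against 0.84 in skin. Of the 1741 that fell in skin, 69.0% had a negative sorted effect, with a median of -0.33 against -0.73.

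The difference between the effects was tested directly, while the part of Cre in it was not tested. It passed for 228 genes (1.38%), 62 (0.376%) with the higher effect in sorted cells and 166 with the higher effect in skin (44 and 451 on the deposited scale of the skin values). In 204 of these the 2 effects had opposite signs, where 59.5% of all genes had the same sign. Selection for a large difference favours opposite signs, so that count is no separate result. Without sorted knockout replicate 2 the difference passed for 975 genes (5.93%), 306 of them (1.86%) with the higher effect in sorted cells, and 226 of the 975 were among the 228. With library totals made equal, 0 genes passed in limma either in sorted cells or in the difference. Effects centred on the median of all genes gave 190 calls of the difference. The count was 32 without sorted control 1, 8 without sorted control 2, 8 without sorted control 3 and 116 without sorted knockout 1. On the skin side it was 149 without control 2, 445 without control 3, 120 without knockout 1 and 107 without knockout 3. Counted by size with no test, where the groups did not overlap in sorted cells for 29.1% and in skin for 42.8% of all genes, 248 genes had a log2 effect of at least 1 with the same sign in both materials and no overlap of the groups, 141 up and 107 down, and 55 had such effects with opposite signs. A further 851 genes had such an effect in sorted cells with an effect under 0.5 in skin (312 up, 539 down), and 528 in skin with an effect under 0.5 in sorted cells (390 up, 138 down). Without sorted knockout replicate 2 these classes held 346, 73, 854 and 489 genes, and without knockout replicate 3 they held 391, 89, 1530 and 447.

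**Figure D2:**
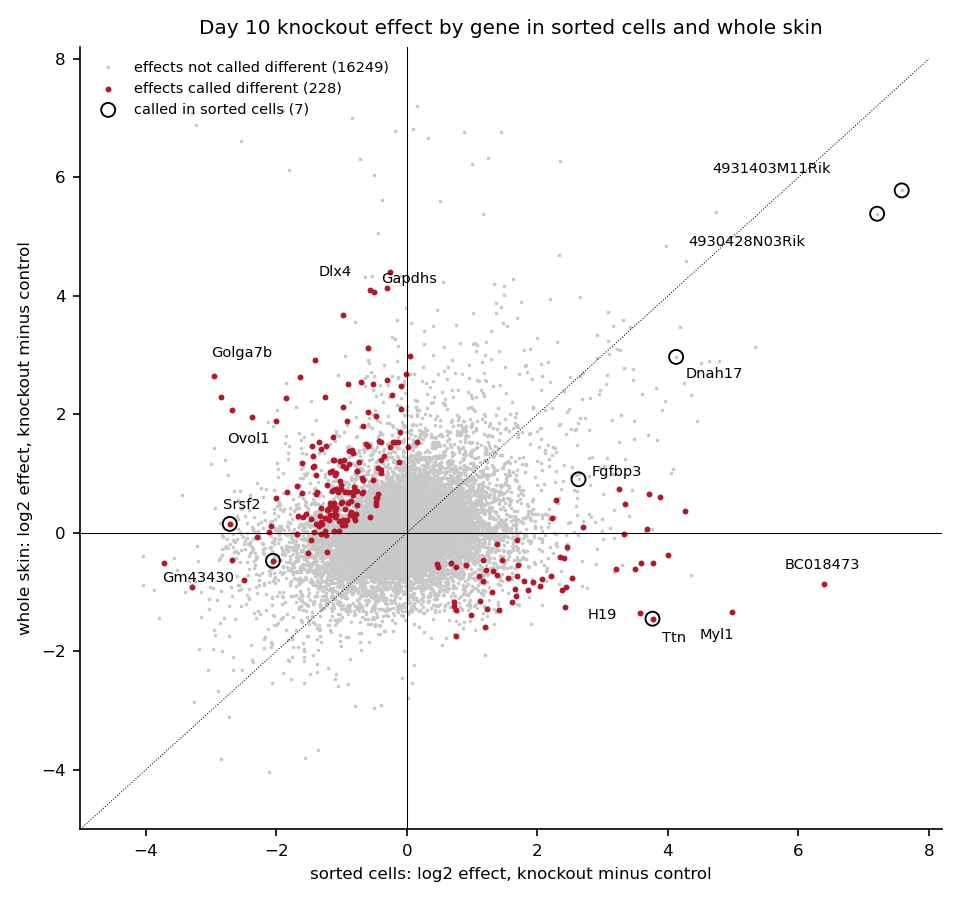
Log2 effect of the knockout in whole skin (vertical axis) against that in sorted cells (horizontal axis) for 16477 genes as points, with the 228 genes whose effects differed in red, the 7 genes called in sorted cells circled and equal effects as the dotted line. Most red points lie in the quadrants of opposite sign, 204 of 228, which selection for a large difference favours.

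Among the 83 genes that rose in both materials, with sorted knockout replicate 2 left out and all skin libraries kept, were Krt6b, Klk6, Stfa2, Sprr2a2, Spink12, Tubb3, Lrit3, Aldh8a1 and Slc7a3. Krt6b, a keratin of wounded and hyperproliferative epidermis, was at 127, 376 and 54.7 normalised counts in the sorted controls and at 36421, 548 and 2547 in the knockouts. In skin it was at 49, 10 and 84 steps in the controls and at 1875, 10970 and 174 in the knockouts. The size of its rise differed widely between knockouts of each material (log2 effects 6.11 and 5.41), and the skin call ended without control 2, knockout 1 or knockout 2. Klk6, a secreted kallikrein protease, was at 350, 214 and 201 normalised counts against 4986, 1075 and 1230 in sorted cells, and at 444, 225 and 868 steps against 3918, 10963 and 2117 in skin. Its groups did not overlap in either material. Stfa2 (a stefin that inhibits cysteine proteases), Sprr2a2 (a small proline-rich protein of the cornified envelope) and Spink12 (a Kazal-type protease inhibitor) rose by 4.79, 3.53 and 6.30 in sorted cells without knockout replicate 2 (adjusted p = 0.0408, 0.0266 and 0.0266). In skin the effects of Stfa2, Sprr2a2 and Spink12 were 3.59, 3.99 and 4.83. The skin calls of Klk6, Stfa2 and Spink12 ended without control 2 or knockout 2.

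Tubb3, a neuronal beta-tubulin, was at 7.56, 5.40 and 18.8 normalised counts in the sorted controls and at 949, 71.9 and 112 in the knockouts. In skin Tubb3 was at 109, 27 and 361 steps against 1850, 3337 and 2501, a rise not called without skin control 2 (adjusted p = 0.0534). Lrit3, a leucine-rich membrane protein of retinal synapses, rose by 6.15 in sorted cells without knockout replicate 2 (adjusted p = 0.0166) and by 3.14 in skin (adjusted p = 0.0051). Aldh8a1, an aldehyde dehydrogenase, had 2.27, 0.675 and 3.42 normalised counts against 124, 24 and 45.2 in sorted cells and 1, 4 and 3 steps against 34, 55 and 27 in skin. Slc7a3, a transporter of cationic amino acids, was at 15.9, 13.5 and 5.99 normalised counts against 136, 78.8 and 107, and at 17, 17 and 26 steps against 65, 101 and 67. Its effects were 3.14 in sorted cells (3.35, adjusted p = 0.0348, without knockout replicate 2) and 1.90 in skin. In each of these 4 genes every knockout lay above every control in both materials, where by that rule 12.9% of all genes were higher in sorted cells and 23.1% in skin.

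The list of wound and stress genes of keratinocytes had 40 of 42 members measured in both. In skin 23 rose and 3 fell, where 13.5% of all genes measured in both rose and 10.6% fell. In sorted cells 0 passed with all libraries, and Krt6b, Sprr2a1, Sprr2a2, Sprr2a3 and Stfa2 rose without knockout replicate 2 (1.04% of all genes rose there). The median sorted effect was 1.03, 1.83 without knockout replicate 2 and -0.24 without knockout replicate 1, against 2.34 in skin. The number that rose in skin was 15 without control 1, 8 without control 2, 11 without knockout 1 and 9 without knockout 2. Krt6a was at 5369, 4183 and 2059 normalised counts in the sorted controls and at 177492, 15292 and 23263 in the knockouts. Its effect was 3.47 (adjusted p = 0.16). Its wound partner Krt16 was at 38410, 39530 and 88364 against 50759, 26507 and 14120, so the groups overlapped. In skin both keratins rose, Krt6a by 2.58 and Krt16 by 2.98, calls that ended without control 1 or 2 or knockout 1 or 2. Knockout replicate 1, the highest for Krt6a and Krt6b, was also the highest for the neutrophil list, whose summed level over 10 genes was 23.1 to 398 in the sorted controls and 181 to 23003 in the knockouts. S100a8, a member that stressed keratinocytes also make, was at 11569 there, and the part of other cell types in the wound genes was not tested.

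Falls shared by both materials concerned genes of several kinds. Ehbp1l1, an adaptor of endocytic recycling, was at 2633, 2872 and 2826 normalised counts in the sorted controls and at 682, 2931 and 732 in the knockouts. Knockout replicate 2 alone stayed at the control level. In skin Ehbp1l1 was at 6836, 7087 and 5605 steps against 3382, 3608 and 2879 (log2 effect -0.98 ± 0.15, adjusted p = 0.0035). Without knockout replicate 2 the sorted effect was -1.97 (adjusted p = 0.00739), and the 2 effects then differed (adjusted p = 0.0197). Klhl24, the substrate adaptor of a cullin-3 ubiquitin ligase known to control keratin 14, was at 5157, 5904 and 4898 normalised counts against 1861, 2770 and 2504, and at 2222, 2041 and 1514 steps against 1237, 845 and 1240. Its groups did not overlap in either material, where by that rule 16.1% of all genes were lower in sorted cells and 19.7% in skin. Dpyd, the first enzyme of pyrimidine breakdown, fell by 1.63 in sorted cells without knockout replicate 2 and by 0.94 in skin. Inpp4b, a phosphoinositide phosphatase, fell by 1.14 and 0.83. Zbtb10, a zinc finger repressor, fell by 1.53 and 0.91. Mill2, an MHC class I-like protein, fell by 2.53 and 1.12. The skin calls ended without skin control 2 for Klhl24, Dpyd, Inpp4b and Mill2, without control 1 for Klhl24, Inpp4b and Mill2, without knockout 2 for Klhl24 and Mill2, and without knockout 3 for Inpp4b and Mill2. For Dpyd, Inpp4b, Zbtb10, Mill2 and Klhl24 the difference between materials did not pass with or without that library. Gm43430, a predicted gene at chr3:135650670-135654566, fell in both with all libraries, but by more in sorted cells (log2 effect -2.05, from 4598, 4399 and 5444 to 1121, 969 and 1423) than in skin (-0.47, difference -1.58, adjusted p = 0.036). The difference call was lost without any 1 sorted control, sorted knockout 1, skin control 2 or skin knockout 1 or 2, and the skin fall of Gm43430 was called when skin control 3 was left out and lost without each of the other 5 skin libraries.

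Fgfbp3, a carrier that releases fibroblast growth factors from the matrix (chr19:36917550-36919615), was at 473, 334 and 572 normalised counts in the controls and at 3084, 3232 and 2163 in the knockouts. It rose 6.19-fold (adjusted p = 0.0459). In whole skin the gene was at 53, 71 and 40 steps against 118, 74 and 116 (log2 effect 0.90, adjusted p = 0.10), so that every knockout lay above every control there too, and the difference between materials did not pass (1.73, 95% interval 0.61 to 2.85, adjusted p = 0.12). Syt12, a synaptotagmin of vesicle traffic, was at 296, 311 and 402 normalised counts against 1226, 1198 and 842 in sorted cells and at 184, 225 and 200 steps against 210, 196 and 159 in skin. Its effects differed by 1.80 (adjusted p = 0.0278), and its sorted rise passed without knockout replicate 2 (1.61, adjusted p = 0.0369). The difference call for Syt12 ended without any 1 sorted control or sorted knockout 1 (adjusted p up to 0.204). Faah, which breaks down anandamide, and Agbl3, which trims polyglutamate chains from tubulin, rose by 1.27 and 1.29 in sorted cells without knockout replicate 2. In skin Faah and Agbl3 had effects of 0.06 and 0.07, and their differences passed without that library (adjusted p = 0.0402 and 0.0364) but not with it.

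Ccrl2, a decoy receptor for chemerin, was at 730, 1226 and 794 normalised counts against 76.7, 140 and 243, and at 65, 63 and 65 steps against 46, 47 and 46 in skin. Every knockout lay below every control in both materials, with effects of -2.69 and -0.46 that did not pass with all libraries. The effects of Ccrl2 differed by -2.22 (adjusted p = 0.0379), a call lost without any 1 sorted control, sorted knockout 1, skin control 2 or any 1 skin knockout. Itpkc, an inositol trisphosphate kinase, was at 52535, 58317 and 81770 normalised counts against 10127, 43378 and 21082, where knockout replicate 2 lay closest to the controls, and its skin effect was 0.15. Without that library the Itpkc effects differed with an adjusted p of 0.00556.

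Near the deleted gene on chromosome 11, BC018473 and St6galnac2 had changes in sorted cells. Within 500 kb of Srsf2, 22 genes were measured in both tables. Srsf2 was the 1 gene of these called in sorted cells with all libraries (0.0394% of all genes). Without knockout replicate 2, 4 were called (2.33% of all genes), namely Srsf2, BC018473 and St6galnac2, the last listed under 2 identifiers. In skin 5 of the 22 were called, against 24.1% of all genes, and 3 differed between materials (1.38% of all genes), or 5 without knockout replicate 2 (5.93%). BC018473, an antisense transcript at chr11:116752167-116759373 (plus strand), 90.5 kb from Srsf2, was at 0 in all 3 sorted controls and at 46.9, 44.5 and 267 normalised counts in the knockouts, at least 52.3-fold higher against the floor of 3 reads per library. In skin BC018473 was at 303, 398 and 297 steps in the controls and at 183, 242 and 133 in the knockouts, so the groups separated in the opposite order, and this fall (adjusted p = 0.043) was called when skin knockout 2 was left out and lost without each of the other 5 skin libraries. The difference for BC018473 was 7.25 (adjusted p = 0.00181), called in all 12 leave-outs. Its sorted effect passed without knockout replicate 2 (adjusted p = 0.0234), but not with it (adjusted p = 0.0778). St6galnac2, a sialyltransferase 155 kb from Srsf2 (chr11:116675303-116694868, minus strand), was at 357, 357 and 210 normalised counts against 17.8, 58.2 and 25.3, and at 271, 292 and 219 steps against 126, 154 and 131. It fell in both materials (-3.76, adjusted p = 0.018, in sorted cells without knockout replicate 2, and -0.92 in skin), and by more in sorted cells (difference -2.37, adjusted p = 0.0451). That last call held when sorted knockout 2 or skin control 3 was left out and was lost without each of the other 10 libraries. The second identifier of St6galnac2 (chr11:116677483-116681290) fell by 3.57 in sorted cells without knockout replicate 2 (adjusted p = 0.0337). Its skin effect of -0.88 (adjusted p = 0.135) and its difference of -3.16 (adjusted p = 0.0957) did not pass.

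Genes of the hair shaft, made by the growing follicle, rose in skin, while none passed the sorted test. Of the 41 genes of hair shaft and inner root sheath, 28 were measured in both. In skin 26 of these rose, where 13.5% of all genes did, and 0 passed in sorted cells. The median effect was 3.90 in skin and -0.34 in sorted cells, where the medians over all genes were 0.01 and -0.05. Over all genes these medians moved to -0.31 and -0.39 with library totals made equal, and that of skin to 0.28 on the deposited scale. The sorted median was 0.35 without sorted control 1, over the 24 members then measured. Dlx3, a homeobox regulator of hair formation, was at 1498, 848 and 1943 steps in the skin controls and at 8964, 10387 and 13377 in the knockouts. In sorted cells it was at 411, 281 and 361 normalised counts against 341, 360 and 378, with full overlap. Krt32, a keratin of the hair cuticle, was at 751, 427 and 1045 steps against 6755, 8384 and 12416, and in sorted cells at 630, 757 and 968 normalised counts against 144, 675 and 625. The differences of -2.94 for Dlx3 and -4.65 for Krt32 passed (adjusted p = 0.0278 and 0.0185). Both calls ended without any 1 sorted control, with adjusted p up to 0.161, and that for Dlx3 also without sorted knockout 1.

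The difference passed in the lower direction for 5 of these 28 genes (1.01% of all genes) and for 9 without sorted knockout replicate 2 (4.07%). The 9 were Cux1, Dlx3, Dlx4, Foxn1, Krt32, Krt35, Lef1, Msx2 and Ovol1. It passed for 1 without sorted control 1, 0 without sorted control 2 or 3, 3 without sorted knockout 1 and 16 without skin control 2. The number that rose in skin was 12 without skin control 2 and 14, 13 and 13 without knockouts 1, 2 and 3. Of the 57 keratin-associated proteins of the hair shaft, 55 passed the minimum mean in skin alone, and 50 of these rose there. Their highest mean in the sorted table was 7.66 normalised counts. The summed level of the 57 was 764 to 42295 steps in the skin controls and 652021 to 1218889 in the knockouts, and 16.2 to 31.8 normalised counts in the sorted controls against 22.7 to 89.0 in the knockouts.

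Pigment cell genes also rose in skin. All 7 melanocyte genes measured in both of 13 rose there (median 3.55), where 13.5% of all genes did. In sorted cells 0 passed, with a median of 0.06, or -0.15 and -0.14 without sorted knockout 1 or 3. With library totals made equal that median was -0.25, against -0.39 over all genes. Pmel, a structural protein of melanosomes, was at 324, 516 and 1613 steps in the skin controls and at 11107, 10776 and 15089 in the knockouts. In sorted cells it was at 24.2, 16.2 and 14.5 normalised counts against 39.1, 37.7 and 12.6. The difference for Pmel did not pass with all libraries (adjusted p = 0.094) and passed without sorted knockout replicate 2 (adjusted p = 0.0273). Kit, the receptor for stem cell factor, was at 462, 563 and 610 steps against 1306, 1426 and 1428 in skin and at 184, 219 and 276 normalised counts against 143, 68.5 and 205 in sorted cells. It was the 1 melanocyte gene whose difference passed with all libraries (-2.17, adjusted p = 0.0321), and Kit is also a marker of mast cells. That count was 0 without any 1 of sorted control 1, 2 or 3, sorted knockout 1 and skin knockout 1, 2 or 3, and 4 without sorted knockout 2 or skin control 3. The list of 12 mast cell genes, Kit included, summed to 474 to 548 normalised counts in the sorted controls and 260 to 393 in the knockouts, and to 2155 to 2856 and 2585 to 2966 steps in skin. Of its members Fcer1a, Mrgprb1, Ms4a2 and Tpsb2 were at 0 in all 6 sorted libraries and 3 passed the minimum mean in both tables, and the part of mast cells in the Kit values was not tested.

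**Figure D3:**
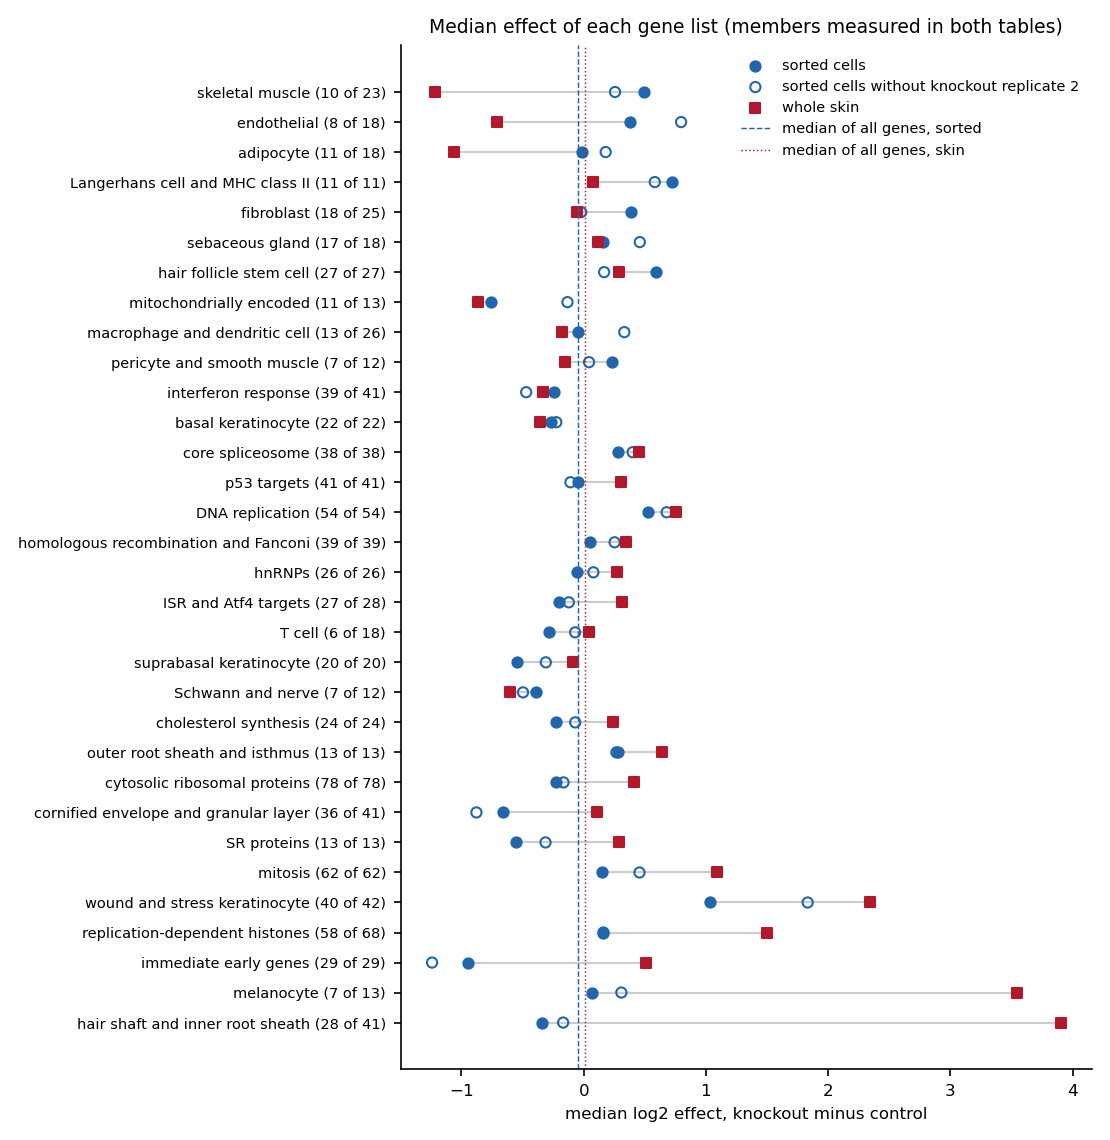
Median log2 effect of each gene list over its members measured in both tables (number of all members in brackets), for sorted cells (filled circles), sorted cells without knockout replicate 2 (open circles) and whole skin (squares), with the medians over all genes as vertical lines. Hair shaft genes lie at -0.34 in sorted cells and 3.90 in skin, and immediate early genes at -0.94 and 0.51.

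Proliferation genes rose in skin, and with all libraries on the step scale their effects there were not shown to differ from those in sorted cells. Of 62 mitosis genes, 42 rose in skin (median 1.09), where 13.5% of all genes did. In sorted cells 0 passed, with a median of 0.15, or -0.20 without sorted knockout 1 and 0.46 without knockout 2. With library totals made equal that median was -0.20, against -0.39 over all genes. With effects centred on the median of all genes it was 0.19. Mki67, a nuclear protein of cycling cells, was at 3026, 3062 and 7365 steps in the skin controls and at 10650, 12577 and 8689 in the knockouts. In sorted cells it was at 14330, 12407 and 14460 normalised counts against 22087, 7674 and 13820, so the knockouts lay on both sides of the controls and replicate 2 was lowest. The skin rise of Mki67 (1.36, adjusted p = 0.029) was not called without skin control 1 or 2 or knockout 1 or 2. Of 54 DNA replication genes, 39 rose in skin (median 0.75). In sorted cells the median was 0.52 (0.29 without sorted knockout 1 and 0.18 with library totals made equal), 0 passed, and 20 had every knockout above every control, where 12.9% of all genes did. Of 58 replication-dependent histone genes measured in both, 46 rose in skin (median 1.50), with a sorted median of 0.15, or -0.19 with library totals made equal. The difference passed for 0 members of these 3 lists in limma with all libraries on the step scale. On the deposited skin scale it passed in the lower direction for 14 histone genes, where 451 of all 16493 genes did. On the step scale it passed for 3 mitosis and 26 histone genes without skin control 3. In skin 18 mitosis, 17 replication and 33 histone genes rose with library totals made equal, where 904 of all 16649 genes did. The skin counts rest on all libraries: without skin control 2, 0 mitosis, 4 replication and 3 histone genes rose, and without skin knockout 2 the counts were 5, 11 and 5. They were 9, 20 and 8 without control 1, and 20, 23 and 22 without knockout 3. Without knockout 1 the mitosis and histone counts were 19 and 28.

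Other genes with the rise in skin alone were Gapdhs, the sperm form of a glycolytic enzyme, and genes of signalling and metal transport. Gapdhs (chr7:30729775-30743681, minus strand) was at 8, 6 and 5 steps in the skin controls and at 123, 131 and 109 in the knockouts (log2 effect 4.07 ± 0.27). In sorted cells it was at 730, 712 and 1061 normalised counts against 581, 360 and 939, with overlap. Its effects differed by -4.57 (adjusted p = 0.00181), a call that held in all 12 leave-outs. Cre, present in the skin knockouts and absent from their controls, cannot be told apart from Srsf2 loss in this skin rise, which also enters the difference. Wnt11, a Wnt ligand, was at 373, 285 and 501 steps against 1928, 2004 and 2364, and Slc39a10, a zinc importer, at 1661, 1340 and 2448 against 7761, 8613 and 10325. Their sorted effects were -0.08 and -0.22, and the differences of -2.55 for each passed (adjusted p = 0.048 and 0.0262). The Slc39a10 call was lost without any 1 sorted control, and the Wnt11 call without each library other than sorted knockout 2 and skin control 3. Falls in skin alone included Trim35, a ubiquitin ligase, at 2636, 2780 and 2716 steps against 1795, 1830 and 1858 (-0.57), with a sorted effect of 0.47 and a difference of 1.04 (adjusted p = 0.0279), lost without any 1 sorted control or skin knockout 1 or 3.

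Immediate early genes, the transcription factors and feedback regulators that cells switch on within minutes of a stimulus, had median effects of opposite sign in the 2 materials. All 29 listed genes were measured in both. Of these 28 had a negative effect in sorted cells and 9 in skin, where 8744 and 8118 of all 16477 genes did. The medians were -0.94 in sorted cells (-1.24 without knockout replicate 2) and 0.51 in skin. In sorted cells 18 had every knockout below every control, where 16.1% of all genes did. None passed the sorted test with all libraries (0 in limma), and Csrnp1, Dusp5, Egr3, Fosl1, Ier5, Junb and Zfp36 fell without knockout replicate 2 (1.28% of all genes fell there). In skin 13 rose and Dusp1, Klf2 and Klf6 fell, where 13.5% and 10.6% of all genes did. On the deposited scale 14 rose and 0 fell, where 2983 and 346 of all 16493 genes did. With library totals made equal 6 rose and 6 fell in skin, where 904 and 5763 of all 16649 genes did. The medians were then -1.29 in sorted cells and 0.19 in skin. The list's summed level was 1158126 to 1550758 normalised counts in the sorted controls and 362306 to 1202666 in the knockouts, and 45205 to 48811 steps in the skin controls and 58737 to 68732 in the knockouts. The sorted knockout sums, but not the skin sums, overlapped with those of their controls. The part of cell sorting in the sorted levels was not tested.

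Btg2, an antiproliferative gene induced by growth factors and p53, was at 64504, 71900 and 95858 normalised counts in the sorted controls and at 19574, 36238 and 35949 in the knockouts. In skin it was at 1964, 1936 and 2169 steps against 3512, 3179 and 3101. The groups separated in both materials in opposite order, and the effects of -1.37 and 0.69 differed by -2.06 (adjusted p = 0.00922). The call was lost without sorted control 2 or 3 (adjusted p up to 0.0689). Zfp36, which destabilises cytokine mRNAs, was at 93224, 106959 and 129391 normalised counts against 19050, 58777 and 42478, and at 1124, 1280 and 1403 steps against 1396, 1751 and 1422. Its difference of -1.85 (adjusted p = 0.0477) was lost without each library other than sorted knockout 2 and skin control 3. Egr1, Egr2 and Egr3, zinc finger factors of the early response, had sorted effects of -1.22, -0.39 and -1.10, skin effects of 0.81, 1.01 and 0.98, and differences of -2.03, -1.40 and -2.08 that passed (adjusted p = 0.0392, 0.0232 and 0.0399). All 3 calls were lost without any 1 sorted control, those of Egr1 and Egr3 also without sorted knockout 1, skin control 2 or skin knockout 2 or 3, and that of Egr3 also without sorted knockout 3. Junb, a subunit of AP-1, was at 72821, 88978 and 95438 normalised counts against 22730, 121919 and 41225, so that knockout replicate 2 lay above all controls and the other knockouts below. The Junb difference passed without that library (adjusted p = 0.0039) and not with it (adjusted p = 0.124).

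The difference passed in the lower direction for 5 of the 29 with all libraries (1.01% of all genes) and for 17 without sorted knockout replicate 2 (4.07%). It passed for 1 without sorted control 1, 0 without sorted control 2 or 3, 3 without sorted knockout 1 or 3, 2 without skin control 2, 9 without skin control 3, and 3 without skin knockout 2 or 3. The number that rose in skin was 8 without skin control 1 and 6 without skin control 2 or knockout 2. The Btg2 and Zfp36 promoters are shown because each holds a site of a kind known for this class, the cyclic AMP response element TGACGTCA in Btg2 and a CArG box, the serum response element core, in Zfp36, each marked in capitals. Both are RefSeq windows on GRCm38.p6, Btg2 from chr1:134079106-134079405 and Zfp36 from chr7:28379179-28379478, read from the minus strand. Of 24 listed genes with a window, 2 (Btg2 and Dusp1) held TGACGTCA and 3 (Egr2, Dusp5 and Zfp36) a CArG box on either strand, where 1.79% and 1.63% of 32851 windows of 300 bases did. A match is a description of these letters only.
Btg2: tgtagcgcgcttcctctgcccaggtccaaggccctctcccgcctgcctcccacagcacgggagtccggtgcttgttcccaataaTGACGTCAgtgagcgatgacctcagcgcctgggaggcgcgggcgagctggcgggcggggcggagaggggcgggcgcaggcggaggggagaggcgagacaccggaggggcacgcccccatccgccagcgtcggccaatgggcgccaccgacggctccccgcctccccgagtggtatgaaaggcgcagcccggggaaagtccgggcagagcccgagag
Zfp36: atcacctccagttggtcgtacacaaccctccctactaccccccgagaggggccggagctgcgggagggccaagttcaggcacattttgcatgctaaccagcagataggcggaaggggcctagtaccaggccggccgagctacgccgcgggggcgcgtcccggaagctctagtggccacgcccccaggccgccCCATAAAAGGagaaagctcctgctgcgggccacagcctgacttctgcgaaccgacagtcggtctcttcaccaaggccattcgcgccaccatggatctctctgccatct

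Some targets of p53, the factor that halts damaged cells, also had effects of opposite sign. Of 41 listed genes, 18 rose and 3 fell in skin, where 13.5% and 10.6% of all genes did. In sorted cells 0 passed (Mdm2 fell without knockout replicate 2). The medians were -0.05 in sorted cells and 0.30 in skin. With library totals made equal the skin median was -0.01, against -0.31 over all genes, and 12 rose and 9 fell. By that scaling 904 and 5763 of all 16649 genes did. Mdm2, the ubiquitin ligase that limits p53, was at 15933, 13424 and 18143 normalised counts in the sorted controls and at 5062, 6770 and 7243 in the knockouts, without overlap. In whole skin the gene was at 1436, 1149 and 1221 steps against 1412, 1434 and 1450 (log2 effect 0.18, adjusted p = 0.22). The difference was -1.50 (adjusted p = 0.014), lost without any 1 sorted control. Cdkn1a, the cyclin-dependent kinase inhibitor p21, was at 36028, 40071 and 45808 normalised counts against 19392, 33318 and 24250, and at 3300, 2257 and 3203 steps against 4868, 6066 and 5523, so its groups separated in opposite order. Its difference of -1.62 passed (adjusted p = 0.0451) and was lost without each library other than sorted knockout 2 and the 3 skin controls. The skin rise of Cdkn1a was not called without skin control 2 (adjusted p = 0.0529). Sesn2, a stress-induced sestrin, and Tnfrsf10b, a death receptor, had sorted effects of -1.0 and -0.76, which did not pass, and rose in skin by 0.74 and 1.04. Their differences of -1.75 and -1.80 passed (adjusted p = 0.014 and 0.0222), that of Sesn2 lost without sorted control 2 or 3 and that of Tnfrsf10b without any 1 sorted control.

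The difference passed for 6 p53 targets in the lower direction, Btg2, Cdkn1a, Mdm2, Plk3, Sesn2 and Tnfrsf10b, of which Btg2 also stands in the immediate early list. The share of all genes was 1.01%. The count was 10 without sorted knockout 2 (4.07% of all genes), 2 without sorted control 1 and 0 without sorted control 2 or 3. The number that rose in skin was 9 without skin control 2.

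Effects of opposite sign were also seen for Ovol1, Cldn4 and Hes1. Ovol1, a zinc finger repressor that directs keratinocytes out of the cell cycle, was at 10645, 13908 and 20481 normalised counts in the sorted controls and at 4751, 6520 and 4797 in the knockouts. In skin it was at 2244, 1559 and 2484 steps against 5317, 6246 and 5570. The difference was -2.92 (adjusted p = 0.00563). Cldn4, a tight junction claudin, was at 18880, 20683 and 27928 normalised counts against 4967, 13019 and 8399, and at 2423, 2424 and 3355 steps against 7454, 6125 and 6470 (difference -2.74, adjusted p = 0.00922). Hes1, a Notch target, had effects of -1.60 and 0.66 (difference -2.27, adjusted p = 0.0192). In Ovol1, Cldn4 and Hes1 the groups separated in both materials in opposite order, and the call was lost without sorted control 2 or 3 (adjusted p up to 0.117). Of the 20 listed suprabasal keratinocyte genes, which include Ovol1 and Hes1, the difference passed for these and Grhl3, and the medians were -0.55 in sorted cells and -0.09 in skin. Of 36 cornified envelope and granular layer genes measured in both of 41, it passed for 0 in limma (for Ivl alone without sorted knockout replicate 2), with medians of -0.66 and 0.11. With library totals made equal, the skin median of the cornified envelope list was -0.21, and on the deposited scale that of the suprabasal list was 0.19.

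Mfsd2a, a lipid transporter, was at 2977, 3837 and 8898 normalised counts against 1002, 866 and 1837 and at 344, 312 and 426 steps against 1040, 1505 and 1470 (difference -3.88, adjusted p = 0.00563), a call that held in all 12 leave-outs. Golga7b, a cofactor of protein palmitoylation, was at 322, 413 and 611 normalised counts against 118, 247 and 149 and at 481, 600 and 993 steps against 4084, 5440 and 5547 (difference -4.32, adjusted p = 0.00563, lost without sorted control 2 or 3), and its skin rise was not called without skin control 2 or knockout 2. Sprr1a, a cornified envelope precursor, rose in skin by 2.51 and had a sorted effect of -0.52 (difference -3.04, adjusted p = 0.0137), a call lost without any 1 sorted control.

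**Figure D4:**
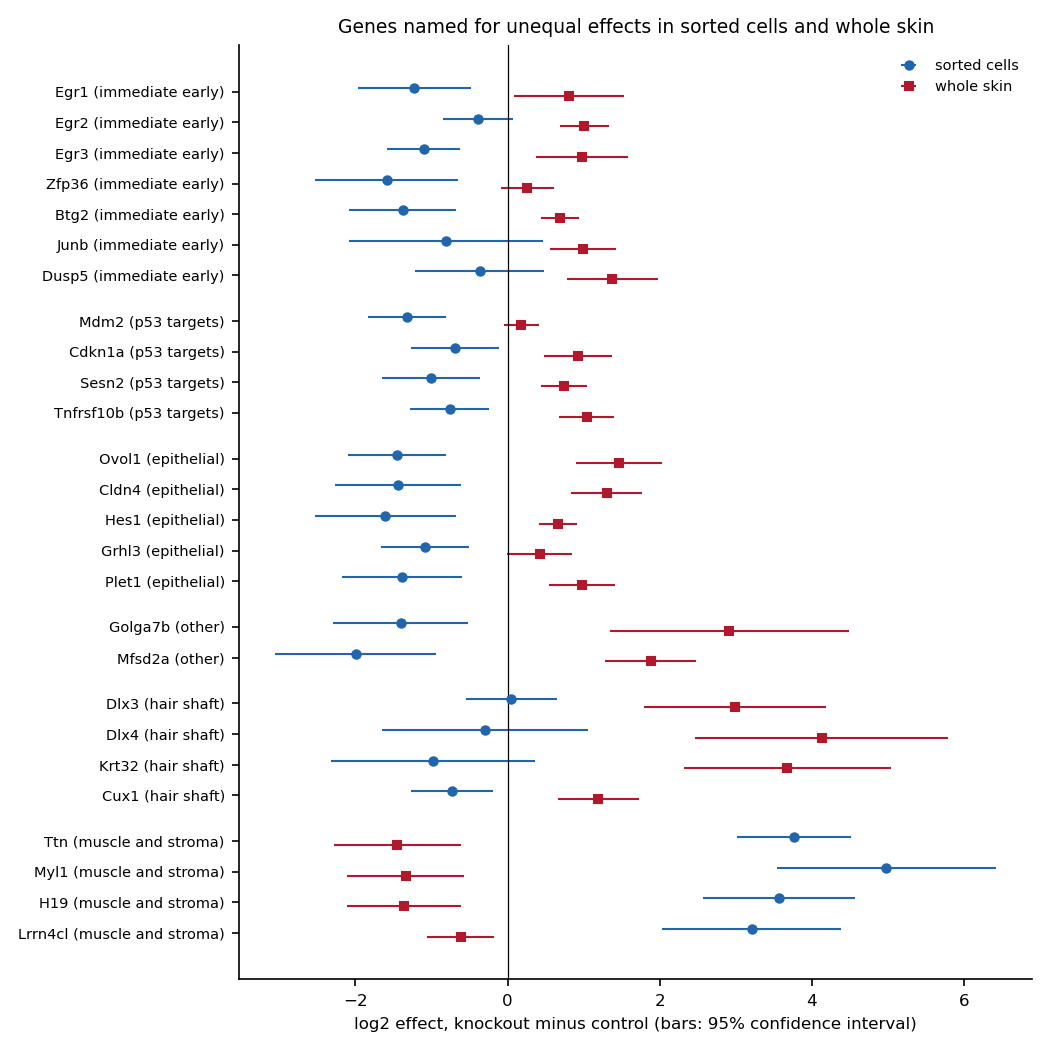
Log2 effect of the knockout in sorted cells (circles) and whole skin (squares) for 26 named genes, grouped by role, with 95% confidence intervals as bars. With all libraries the difference passed for each of them except Junb and Dusp5. Btg2 lies at -1.37 in sorted cells and 0.69 in skin, and Ttn at 3.76 and -1.45.

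In the reverse direction, the muscle gene Ttn rose in sorted cells and fell in skin. Ttn, the giant sarcomere protein titin (chr2:76703980-76982547, minus strand), was at 59.8, 55.4 and 46.2 normalised counts in the sorted controls and at 959, 531 and 793 in the knockouts, 13.6-fold higher (adjusted p = 0.0164). In skin, Ttn fell 2.73-fold, from 705330 to 1614613 steps in the controls to 324930 to 452420 in the knockouts. Its difference of 5.21 (adjusted p = 0.00181) held in all 12 leave-outs. Myl1, a myosin light chain of fast muscle that is not on the muscle list, was at 1.51, 2.70 and 7.70 normalised counts against 96.6, 134 and 192 in sorted cells, and at 21904, 14460 and 7936 steps against 6191, 4222 and 5949 in skin. The Myl1 difference of 6.32 (adjusted p = 0.00438) also held in all 12, while its sorted effect passed without knockout replicate 2 (adjusted p = 0.0266) and not with it (adjusted p = 0.0711). H19, an imprinted noncoding RNA, was at 20.4, 33.8 and 14.5 normalised counts against 342, 264 and 211 in sorted cells, and fell in skin by 1.36. The H19 difference was 4.93 (adjusted p = 0.00563), lost without sorted control 3 (adjusted p = 0.0592). The skin falls of Ttn, Myl1 and H19 were not called without skin control 1 or 2, nor that of Ttn and Myl1 without knockout 2, nor that of Ttn and H19 without knockout 3.

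Of 23 skeletal muscle genes, 10 were measured in both. All 10 fell in skin, where 10.6% of all genes did. Ttn was the 1 called in sorted cells, where 3 of the 10 had a negative effect and the median was 0.49. The number that fell in skin was 3 on the deposited scale, where 346 of all 16493 genes did. That number was 3 without skin control 1, 2 without control 2 and 3 without knockout 2. Neb, Mylpf and Actn2, further sarcomere genes, had sorted effects of -1.24, 0.47 and 0.51 (adjusted p = 0.231, 0.521 and 0.553). The list's summed level was 1107 to 1428 normalised counts in the sorted controls and 2043 to 2229 in the knockouts, and 1295785 to 2844593 steps in the skin controls against 675372 to 857520 in the knockouts. None of the 23 was at 0 in all sorted libraries, and the part of muscle RNA in the sorted rises was not tested.

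Genes of fat and vessels fell in skin. Of 11 adipocyte genes measured in both of 18, 6 fell in skin, and of 8 endothelial genes of 18, 6 fell. By comparison, 10.6% of all genes measured in both fell there. On the deposited scale 5 adipocyte and 0 endothelial genes fell in limma, where 346 of all 16493 genes did. The skin medians were -0.78 and -0.43 there against -1.06 and -0.71. The adipocyte count was 3 without skin control 2 or knockout 2 and the endothelial count 2 without control 2. In sorted cells 0 of either list passed in limma. Gpd1, the glycerol phosphate dehydrogenase of fat cells, was at 2710, 2661 and 2549 steps in the skin controls and at 854, 614 and 934 in the knockouts, and at 105, 73.6 and 47.9 normalised counts against 122, 199 and 75.0 in sorted cells. Slc2a4, the insulin-responsive glucose transporter, fell in skin by 1.30 and had a sorted effect of 0.75. Their differences of 2.50 and 2.05 passed (adjusted p = 0.0288 and 0.0354), and both were lost without any 1 sorted control or sorted knockout 1, and that of Slc2a4 also without sorted knockout 3, skin control 1 or 2 or skin knockout 1 or 2. The summed adipocyte level was 40179 to 119605 steps in the skin controls and 30195 to 40974 in the knockouts.

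The 13 SR protein genes, the family of the deleted gene, had medians of -0.55 in sorted cells (-0.31 without knockout replicate 2) and 0.29 in skin. With library totals made equal the skin median was -0.03, against -0.31 over all genes. In sorted cells Srsf2 fell and 8 of the 13 had every knockout below every control, where 16.1% of all genes did. In skin 6 rose, where 13.5% of all genes did. With library totals made equal 1 rose and 2 fell there, where 904 and 5763 of all 16649 genes did. The number that rose was 3 without skin control 1, 0 without control 2 and 1 without any 1 knockout. The list's summed level was 159187 to 171323 normalised counts in the sorted controls and 112463 to 124857 in the knockouts. Tra2b, an SR-like splicing activator, was at 15997, 16840 and 18014 normalised counts against 10001, 8917 and 11128 in sorted cells and at 1600, 1335 and 1703 steps against 2050, 2019 and 2370 in skin. Its groups separated in opposite order, and the difference of -1.24 passed (adjusted p = 0.0321), lost without any 1 sorted control, sorted knockout 1 or skin knockout 3. Srsf2 and Tra2b were the 2 SR genes with a difference call, and without sorted knockout replicate 2 Srsf3, Srsf7, Srsf11 and Tra2a were added.

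Of 38 core spliceosome genes, 20 rose in skin (median 0.45), where 13.5% of all genes did. The sorted median was 0.28, or -0.07 with library totals made equal, against -0.39 over all genes by that scaling. Lsm4 and Prpf31 rose in sorted cells without knockout replicate 2, and the difference passed for 0 members in limma with or without that library. Of 78 cytosolic ribosomal protein genes, 38 rose in skin (median 0.41). In sorted cells 61 had a negative effect (median -0.23), where 8744 of all 16477 genes did, and 0 passed the sorted test. With library totals made equal, 1 spliceosome and 0 ribosomal genes rose in skin in limma (medians 0.14 and 0.09). By that scaling 904 of all 16649 genes did (median -0.31). On the deposited scale 25 and 60 rose, where 2983 of all 16493 genes did (median 0.28). The number of spliceosome genes that rose in skin was 5 and 2 without skin controls 1 and 2, and 9, 6 and 7 without knockouts 1, 2 and 3. That of ribosomal genes was 7, 3, 19, 22 and 7 in the same order.

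Some genes could be measured in 1 material alone. A further 2973 genes had a mean of 10 or more in skin but not in sorted cells, and 367 of these rose and 579 fell in skin. They included the keratin-associated proteins above, 12 rising hair shaft genes of 13, and 10 falling endothelial genes of 10. The skin mean takes in controls and knockouts, so it favours genes that are high in 1 group, and these counts are no separate result. Another 1267 genes reached that mean in sorted cells alone, and 0 of these passed the sorted test in limma.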

How the data were processed

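RNA-seq effects of the knockout were computed in each of 2 expression tables, both made from libraries of a stranded total RNA kit, per the labels' protocols. The submitters' processing notes name STAR, featureCounts and DESeq2, with versions, genome build and strand setting not stated there. The deposited values are a normalised signal: in the sorted table whole reads multiplied by a factor per library, in the skin table whole multiples of each library's smallest step (100% of values within 1e-04), with undetected genes mostly at 1 step. Skin columns were divided by their smallest positive value, which takes out the deposited factor of each library.

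Effects were fitted with limma 3.58.1 (R 4.3.3) on log2(value + 1) for genes with a mean of at least 10, the skin fit over 12 libraries of 4 groups, with trend and Benjamini-Hochberg adjustment over all genes tested at 0.05. The difference of effects was a contrast of contrasts in 1 fit of 12 libraries with 1 estimated weight per table (0.492 sorted, 2.03 skin). Recovered reads were tested with edgeR 4.0.16 and DESeq2 1.42.0. Named genes were Srsf2, 12 marker genes listed by name, the largest shared, opposite, sorted-only and skin-only effects and up to 4 members per list by p, with predicted and RIKEN genes left out; Gm43430, 4931403M11Rik, 4930428N03Rik, Fgfbp3, Slc7a3 and genes listed by symbol to spell out a count were named after their values were seen. A gene that the rule names is not reported here. Members, lists and rules were chosen with earlier results of these data known. Gene positions come from matched identifiers (49326 of 49585), and promoters from RefSeq. The tests were checked on simulated data, and the depth is given in the report. Alternatives were other scalings, pseudocounts, minimum means, fits and leaving out each library.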

Additional observations from a re-analysis of the deposited data

Results flagged for a closer look

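For 55 of the named genes the knockout effect differed between the 2 materials in limma's test of the difference (sorted minus skin effect, log2, in brackets, adjusted p below 0.05 over 16477 genes). In 39 of them the effect was lower in sorted cells than in skin. Those with the lowest differences were Gabrp (-5.14), Adh6b (-4.76), Gnmt (-4.66), Krt32 (-4.65), Gapdhs (-4.57), Dlx4 (-4.43), Golga7b (-4.32), Mfsd2a (-3.88), Sprr1a (-3.04), Dlx3 (-2.94), Ovol1 (-2.92), Srsf2 (-2.86) and Nhs (-2.80). They were followed by Cldn4 (-2.74), Wnt11 (-2.55), Slc39a10 (-2.55), St6galnac2 (-2.37), Plet1 (-2.37), Hes1 (-2.27), Ccrl2 (-2.22), Kit (-2.17), Slc39a8 (-2.17), Egr3 (-2.08), Btg2 (-2.06), Egr1 (-2.03), Ppp1r15a (-1.95) and Cux1 (-1.92). The others were Zfp36 (-1.85), Tnfrsf10b (-1.80), Sesn2 (-1.75), Plk3 (-1.75), Cdkn1a (-1.62), Gm43430 (-1.58), Grhl3 (-1.51), Mdm2 (-1.50), Cdh3 (-1.43), Egr2 (-1.40), Tra2b (-1.24) and Fdft1 (-1.07). In 16 the effect was higher in sorted cells, namely BC018473 (7.25), Myl1 (6.32), Ttn (5.21), H19 (4.93), Lrrn4cl (3.82), Nkain1 (3.35), Adcy2 (2.95), Rasa4 (2.95), Ak1 (2.51), Gpd1 (2.50), Mmp9 (2.30), Slc2a4 (2.05), Rasip1 (1.97), Syt12 (1.80), Trim35 (1.04) and Wfs1 (0.98). Of the 55 calls, 55 held without sorted knockout replicate 2, while 14, 7 and 7 held without sorted controls 1, 2 and 3.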

How the results depend on the processing

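With library totals made equal, 0 genes were called in sorted cells, 8019 in skin, 0 in the difference and 0 in both with the same or opposite sign (4 and 1 as reported), and Fdft1 in skin turned to -0.0518. Those totals include Gm26917 and Gm42418, which held 60.9% of the reads of sorted knockout replicate 2. With effects centred on the median of all genes, 6 genes were called in sorted cells and 190 in the difference. The difference had 495 calls on the deposited skin scale, 138 with no minimum mean and 370 without table weights. Genes called in both with opposite sign numbered 0 on the deposited skin scale, 2 with a pseudocount of 5 and 0 with a skin fit of 2 groups. edgeR called 3 genes in sorted cells, 2 of them called in skin with the same sign, and 427 without sorted knockout replicate 2, an alternative chosen after seeing the data. DESeq2 called 1256. A minimum mean of 50 gave classes by size of 154 shared, 32 opposite and 513 sorted only, with a correlation of 0.330, and no minimum mean gave 93 opposite, 1397 sorted only and 1130 skin only, with 0.187. Leaving out 1 library gave 0 to 410 calls in sorted cells, 1434 to 4877 in skin, 8 to 975 in the difference, 0 to 114 in both with the same sign and 0 to 35 with opposite sign, 218 to 391 shared, 48 to 89 opposite, 795 to 1530 sorted only and 447 to 732 skin only by size, and correlations of 0.164 to 0.341. Replicate numbers were not taken to pair samples: deviations of same-numbered libraries correlated at 0.190, 0.058 and 0.168 in sorted cells, each highest with its own number, and at 0.137, 0.096 and -0.062 in skin. With a replicate block 0 genes were called in sorted cells, 0 in both with the same or opposite sign, and 152 in the difference. With a pseudocount of 5, 7 of 7 sorted, 196 of 196 skin and 54 of 55 difference calls of named genes held. Fewer held in other settings. Of the 196 skin calls, 152 held on the deposited scale, 167 with library totals made equal and 108 without skin control 2. Of the 55 difference calls, 38 held with no minimum mean and 33 with a replicate block, and all 55 were lost with library totals made equal. The 6 sorted libraries and their spread limit the sorted test, which recovered 1% of 2-fold changes on simulated data.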
